A study of Mus musculus with 6 samples.

Results

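Cells make cholesterol and fatty acids through a chain of enzymes whose genes are switched on together by the sterol regulatory element binding proteins, SREBP-1 and SREBP-2. When membrane sterol is plentiful, INSIG proteins hold SREBP and its escort SCAP in the endoplasmic reticulum; when sterol is scarce, SCAP carries SREBP to the Golgi, where proteases free the part that enters the nucleus. In T cells this programme is known to be raised after activation, when new membrane is needed for growth. The 31 genes described here are those probes of the scanner files, controls left out, whose gene name is one of 31 fixed names, with the brightest probe standing for each gene. They comprised 5 regulators of the SREBP pathway (10 probes), 18 genes of the sterol branch (37 probes) and 8 genes of the fatty acid branch (13 probes), out of 27975 genes on 41174 probes. All 31 were well above background on enough arrays to be tested, among 22668 genes.

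The RNA came from CD4 T cells of the spleen of C57BL/6J mice. Per the labels, 5 to 10 spleens of mice aged 6 to 32 weeks, males and females, were pooled per sample, and CD4 cells were isolated on anti-CD4 magnetic beads. Every sample was activated with PMA, a phorbol ester that turns on protein kinase C, and ionomycin, which lets calcium into the cell, so the untreated group is activated too. The treated group also received VIP, vasoactive intestinal peptide, which nerves and lymphocytes release and whose receptors raise cyclic AMP. For its dose and duration, the sources used here give no value. Per the labels, each of the 6 two-colour arrays held both RNAs of 1 biological replicate, with VIP in Cy5 on replicates 1, 3 and 5 and in Cy3 on replicates 2, 4 and 6.

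Values are log2 ratios of VIP over untreated within an array, so 0 means equal signal and a negative value means less with VIP. The fitted ratio gives equal weight to the mean of each dye orientation, which takes out an effect of the dye. Where a gene lacks arrays, those left in the smaller orientation count for more. The SE and adjusted p of the fitted ratio come from limma, with Benjamini-Hochberg adjustment over all 22668 genes and a threshold of 0.05. "Rose" and "fell" are used only past that threshold. In a bulk sample, fewer cells of a type and less RNA per cell cannot be told apart.

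The share of spots well above background ranged from 56.9% to 99.9% over the 12 channels. Over all genes, 365 rose and 121 fell, which is 2.14% of those tested. This split depended on the scaling, with 112 rising and 8 falling when arrays were centred on their median, and 19 and 0 with the authors' log ratios. Replicate 5 stood apart from the others. Its log2 ratio was 4.08 for Ddx3y and 4.18 for Eif2s3y, which are Y-linked, and -3.29 for Xist, which is made from the inactive X, while no other array went beyond 0.46 in size for these genes. The 2 RNAs of replicate 5 thus differed in sex-linked transcripts, so its ratio may not compare cells of 1 pool of mice as the labels state; this was not tested. Outlier flags also took 13.5% of its spots, against 0.57% to 4.44% on the other arrays. Of the 31 genes, 12 had no value on replicate 5 (38.7%, against 16.1% of all genes) and rest on 5 arrays. Results are therefore also given without it.

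Of 10 T cell markers, 9 were tested, and Cd28 (0.28) and Cd2 (0.22) rose; Cd3e was not well above background on enough arrays. The call of Cd28 was lost without replicate 1, 2 or 6 (limma adjusted p of 0.0543 to 0.0701). That of Cd2 was lost without replicate 1, 2, 3, 4 or 6 (limma adjusted p of 0.0599 to 0.0918). Both calls were also lost with plain background subtraction, median centring and the authors' log ratios. The limma adjusted p was then 0.142 to 0.28 for Cd28 and 0.182 to 0.285 for Cd2. A second, dimmer Cd28 probe gave 0.16. Of 7 monocyte and macrophage markers, Cd14 rose (0.57 ± 0.069, SE, n = 5 arrays, limma adjusted p = 0.00327), a call lost with plain background subtraction (adjusted p = 0.122) and with the authors' log ratios (0.169). The other 5 tested did not pass, and Csf1r was not tested because it was not well above background. The summed signal of those 5, without Cd14, lay between log2 13.2 and 14.3 with VIP and between 12.9 and 14.3 without it. Within arrays it differed by -0.12 to 0.31 and was higher with VIP on 5 of 6. None of the 8 B cell, 6 dendritic, 5 NK and CD8, 3 neutrophil and 3 erythroid markers tested passed, and their part in the results below was not tested.

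Of the 31 genes, 1 fell (Srebf2), none rose and 30 did not pass. The background is 0.534% of all genes falling and 1.61% rising. At an unadjusted p under 0.05, 8 of the 31 were lower and 4 were higher, where 5.73% and 7.22% of all genes were. The log2 ratio was below 0 for 21 of the 31, against 50.3% of all genes. The median over the 31 was -0.058 and over all genes -0.00044, so the differences were small. By role, the medians were -0.087 for the regulators, -0.062 for the sterol branch and 0.012 for the fatty acid branch. Without replicate 5, Srebf2 and Fdft1 fell and none rose, where 1.12% of all genes fell and 2.52% rose. Of the 31, 19 were then below 0, and the 3 medians were -0.080, -0.059 and 0.043. Neither Srebf2 nor Fdft1 has a value on replicate 5, so their ratios were the same in both fits. Only the variance that limma shares across genes and the adjustment over all genes differed.

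**Figure D1:**
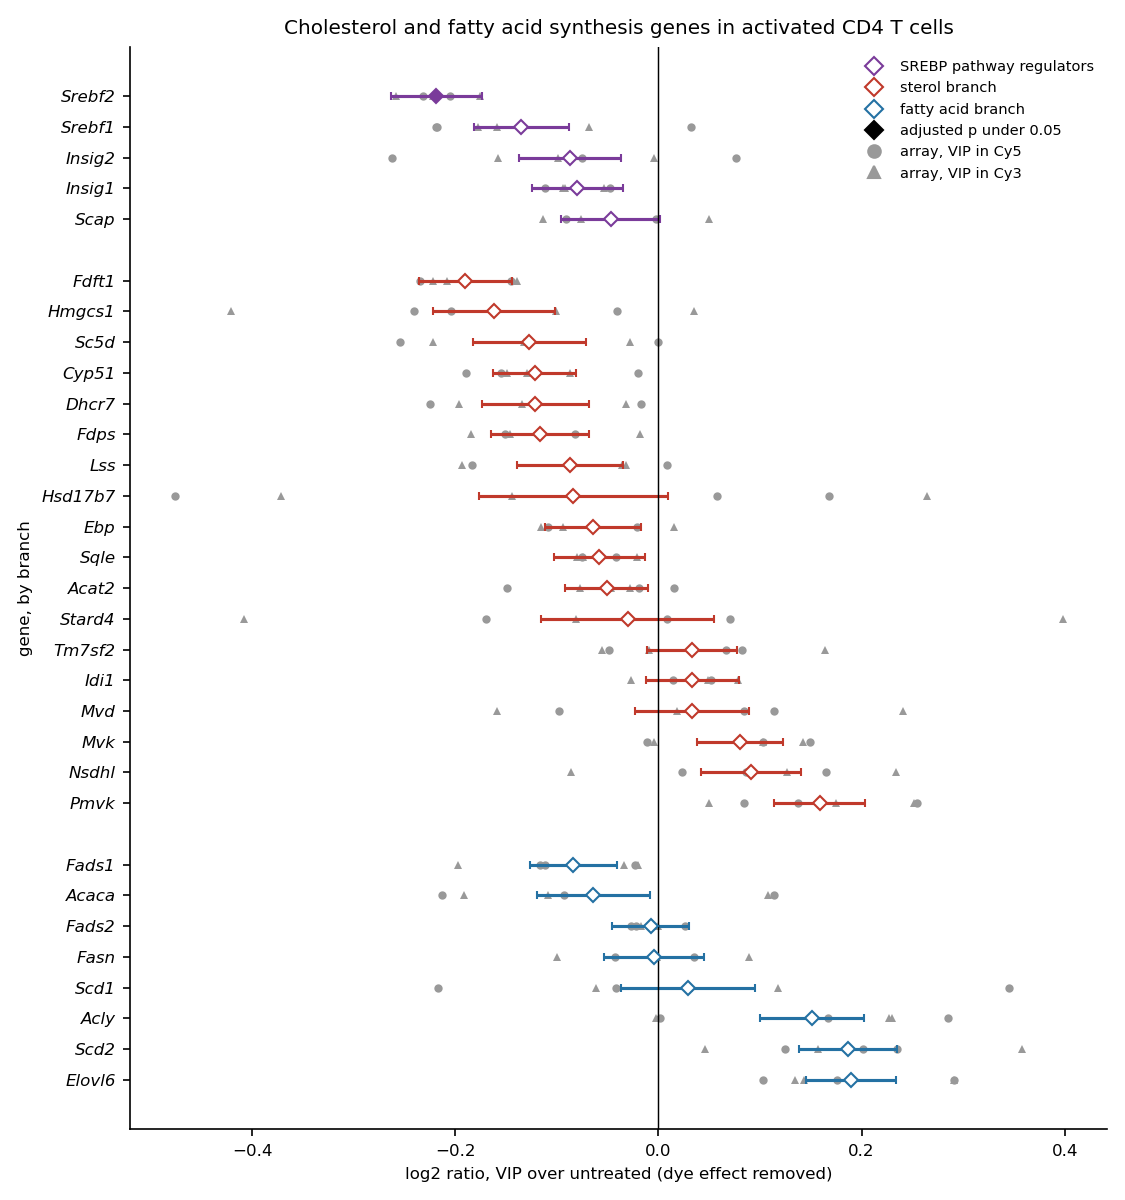
Log2 ratio of VIP over untreated for the 31 genes, by branch. Diamonds and bars are the fitted ratio ± SE, filled where the limma adjusted p is under 0.05, and grey points are single arrays with the dye effect removed (circles for VIP in Cy5, triangles for VIP in Cy3). Srebf2 is the lowest at -0.22 and the only filled diamond, the 5 regulators lie below 0, and Elovl6 and Scd2, at 0.19, are the highest.

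Srebf2, which encodes SREBP-2, the factor that mainly drives cholesterol synthesis genes, was the one gene that fell. Its log2 ratio was -0.40 on replicate 1, -0.01 on replicate 2, -0.37 on replicate 3, -0.09 on replicate 4 and -0.06 on replicate 6, with no value on replicate 5. All 5 arrays were below 0, and the arrays with VIP in Cy5 were much lower than those with VIP in Cy3. With the dye effect of -0.17 removed, the arrays ran from -0.26 to -0.18. The fitted ratio was -0.22 ± 0.045 (SE, n = 5 arrays, limma adjusted p = 0.0425), a 0.859-fold level with VIP. With the outlier spots kept, replicate 5 entered and the adjusted p from limma was 0.057 at a ratio of -0.19. Within slides, each with 1 array of either dye, the mean was -0.20 on slide 1 and -0.23 on slide 2, and slide 3 gave no value. Leaving out replicate 1, 2, 3, 4 or 6 ended the call, with ratios from -0.23 to -0.21.

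The call rests on 1 of 4 Srebf2 probes. The brightest, annotated to the cDNA AK172219 at chr15:82035695-82035754 (mm9), gave -0.22, while the other 3, in order of brightness, gave 0.04 ± 0.045 (chr15:82003987-82004046), 0.02 ± 0.040 (chr15:82034765-82034824) and 0.02 ± 0.053 (chr15:82007873-82007932). All 4 lie on the plus strand of chromosome 15; whether each falls in coding or untranslated exon was not analysed here. The mean of the 4 probes was -0.02, with a limma adjusted p of 0.892. Because the probes disagree, the first 30 of the 60 bases of each are shown, in lower case with nothing marked and brightest first.
Srebf2 probe 1: tgggaggggttggtttttcactgaacaggg
Srebf2 probe 2: aaactattcaaatgtccgtccatgggagag
Srebf2 probe 3: aactaggtctttgcaccagagagcattttg
Srebf2 probe 4: cagtgatgtggacttgaaaattgatgactt

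The other regulators did not pass. Srebf1 encodes SREBP-1, which mainly drives fatty acid synthesis genes. Its ratios were -0.34, 0.05, -0.33, -0.04, -0.08 and -0.06 on replicates 1 to 6, lower than 0 on 5 of 6 arrays. The fitted value was -0.14 ± 0.047 (SE, n = 6 arrays, limma adjusted p = 0.234), and -0.18 with an adjusted p of 0.0534 without replicate 5. As for Srebf2, the 2 lowest arrays were replicates 1 and 3, which have VIP in Cy5. Insig1 and Insig2, which encode the retention proteins, had fitted ratios of -0.08 and -0.09, and Insig2 was at -0.04 without replicate 5. Insig1 is itself a target of SREBP, and its 5 arrays were 0.01, -0.11, -0.06, -0.15 and -0.15 (limma adjusted p = 0.524). Its probes disagreed, the brighter at -0.08 and the dimmer at 0.09, whereas both Insig2 probes were below 0 (-0.09 and -0.15). Scap, the escort, had -0.05 ± 0.049 (n = 5 arrays). The median of the regulators was below 0 on 6 of 6 arrays, from -0.11 to -0.06, though on replicate 5 it covers only Srebf1 and Insig2.

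The sterol branch starts with the mevalonate pathway, and its genes lay on both sides of 0. Hmgcs1, whose enzyme makes HMG-CoA from acetyl-CoA units, had ratios of -0.19, -0.11, -0.23, -0.43, -0.03 and 0.02 on replicates 1 to 6. It was lower on 5 of 6 arrays, lowest on replicate 4 and above 0 on replicate 6. The fitted value was -0.16 ± 0.060 (SE, n = 6 arrays, limma adjusted p = 0.269). Its other 2 probes gave -0.02 and -0.03, and all 3 are placed on an unassigned piece of chromosome 13 in mm9.

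The kinases that follow were on the other side of 0. Pmvk, phosphomevalonate kinase, had 0.19, 0.07, 0.36, -0.06, 0.24 and 0.15 on replicates 1 to 6, higher on 5 of 6 arrays. Its fitted ratio was 0.16 ± 0.045 (SE, n = 6 arrays, limma adjusted p = 0.129), the only sterol gene higher at an unadjusted p under 0.05. Its second probe gave 0.07. Mvk, mevalonate kinase, had 0.08 ± 0.043 from the brighter probe and 0.18 ± 0.053 from the dimmer. Mvd, the decarboxylase of the pathway, and Idi1, the isomerase that makes the second building block, both had 0.03. The Idi1 values carry a limit: both probes are annotated to an Idi1 transcript but placed on chromosome 2 in mm9, while the RefSeq gene table places Idi1 on chromosome 13, and which transcript they measure was not tested.

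The enzymes that join the building blocks into squalene lay below 0 without passing. Fdft1, squalene synthase, which commits the pathway to sterols, had -0.23, -0.22, -0.14, -0.14 and -0.21 on replicates 1, 2, 3, 4 and 6. All 5 arrays lay close together below 0, with hardly any dye effect. The fitted ratio was -0.19 ± 0.046 (SE, n = 5 arrays, limma adjusted p = 0.0846), with 0.0383 when replicate 5 was left out of the whole fit. With outlier spots kept it was -0.12 with an adjusted p of 0.448, and its dimmer probe gave -0.04. Fdps, farnesyl diphosphate synthase, showed the strongest dye effect of the 31 genes, 0.29. Its ratios were 0.13 and 0.20 on replicates 1 and 3, with VIP in Cy5. They were -0.47, -0.43 and -0.30 on replicates 2, 4 and 6, with VIP in Cy3. The 2 orientations did not overlap and had opposite signs, and the fit that balances them gave -0.12 ± 0.048 (SE, n = 5 arrays, limma adjusted p = 0.347). Its second probe gave -0.11.

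**Figure D2:**
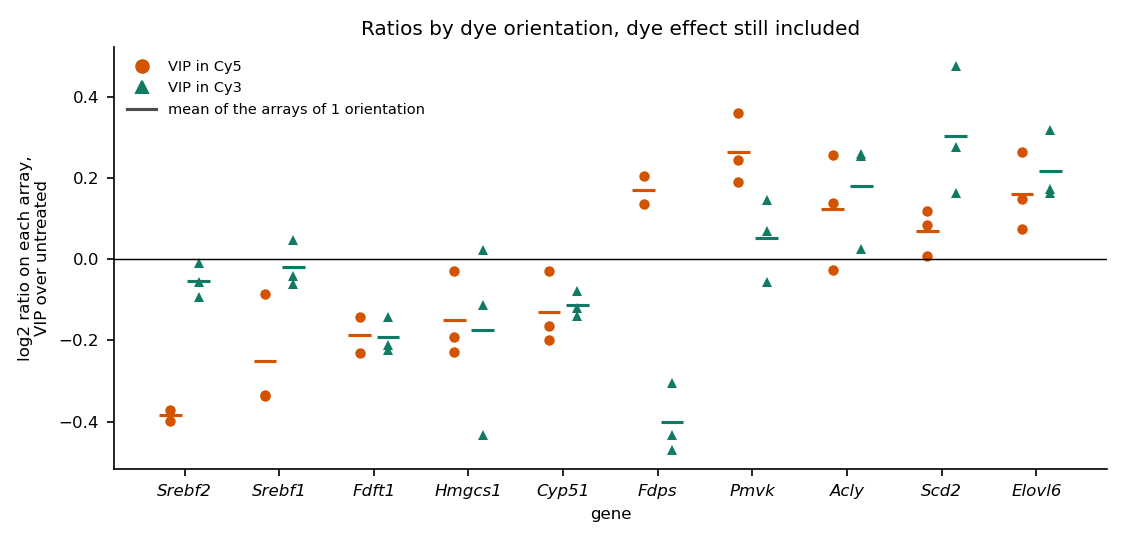
Log2 ratio on each array, dye effect still included, for 10 of the genes, with the arrays of VIP in Cy5 and in Cy3 apart and lines at their means. Fdft1, Cyp51, Hmgcs1 and Elovl6 are alike in both orientations, Srebf2 and Srebf1 are lower with VIP in Cy5, and Fdps has opposite signs.

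Sqle, squalene epoxidase, and Lss, lanosterol synthase, which closes the sterol rings, had fitted ratios of -0.06 and -0.09, each on 5 arrays. The 3 Lss probes gave -0.09, 0.01 and -0.07. Cyp51, lanosterol demethylase, was lower on 6 of 6 arrays, at -0.16, -0.08, -0.20, -0.12, -0.03 and -0.14 on replicates 1 to 6. Of all 22668 genes tested, counting those without a value on some array, 2.2% were below 0 on all 6. Its fitted ratio was -0.12 ± 0.041 (SE, n = 6 arrays, limma adjusted p = 0.222), and the slide means were -0.12, -0.16 and -0.08. All 3 Cyp51 probes were lower, at -0.12, -0.19 and -0.16, so here the probes gave 1 direction.

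The later steps on the sterol ring were mixed. Sc5d, the desaturase, had ratios of -0.03, -0.00, -0.28, -0.11 and -0.20 on replicates 1, 2, 3, 4 and 6. It was lower on all 5 arrays but by almost nothing on slide 1. The fitted value was -0.13 ± 0.056 (SE, n = 5 arrays, limma adjusted p = 0.376). Dhcr7, which makes cholesterol in the last step of one route, had -0.23, -0.13, -0.02, -0.19 and -0.03 on the same arrays, also below 0 on each. Its fitted value was -0.12 ± 0.052 (SE, n = 5 arrays, limma adjusted p = 0.369). With outlier spots kept, Dhcr7 was at -0.03, and it was -0.07 without replicate 1. Ebp, a sterol isomerase, had -0.06, Nsdhl, which takes part in removing the methyl groups, 0.09, and Tm7sf2, a sterol reductase, 0.03. Hsd17b7, the ketoreductase of the same demethylation, varied the most between arrays, from -0.61 on replicate 5 to 0.40 on replicate 4, around -0.08. Without replicate 5 it was 0.01. Stard4, a cholesterol carrier, ranged from -0.29 to 0.51 around -0.03. Acat2, which joins acetyl-CoA units, had -0.05; its probe stood well above background on 5 arrays with VIP and on all 6 without. In all, 12 of the 18 sterol genes were below 0 and 6 above, and the median was below 0 on 5 of 6 arrays. The exception was replicate 5, at 0.02, where 10 of the 18 genes have a value.

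The fatty acid branch had no gene past the threshold, with 4 genes above 0 and 4 below. Acly, which makes cytosolic acetyl-CoA from citrate, had 0.14, 0.25, 0.26, 0.26, -0.03 and 0.03 on replicates 1 to 6. It was higher on both arrays of slides 1 and 2 and near 0 on slide 3 (slide means 0.20, 0.26 and -0.00). The fitted ratio was 0.15 ± 0.051 (SE, n = 6 arrays, limma adjusted p = 0.223), and 0.19 with an adjusted p of 0.0691 without replicate 5. Acaca, acetyl-CoA carboxylase, and Fasn, fatty acid synthase, had -0.06 and -0.00. The 95% interval of the Fasn ratio was -0.11 to 0.11, and its second probe gave -0.08. The 4 Acaca probes gave -0.06, 0.06, -0.06 and 0.01.

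The 2 highest ratios of the 31 were those of Elovl6 and Scd2, neither of which passed. Elovl6, which extends palmitate, was higher on 6 of 6 arrays, at 0.07, 0.17, 0.15, 0.32, 0.26 and 0.16 on replicates 1 to 6. Its fitted ratio was 0.19 ± 0.044 (SE, n = 6 arrays, limma adjusted p = 0.0622), a 1.14-fold level, and 0.16 with an adjusted p of 0.0869 without replicate 5. Scd2, a stearoyl-CoA desaturase, was also higher on 6 of 6 arrays, at 0.08, 0.16, 0.12, 0.27, 0.01 and 0.47. Counting genes without a value on some array, 2.74% of all genes were above 0 on all 6. The Scd2 values are those of replicates 1 to 6. Its fitted ratio was 0.19 ± 0.048 (SE, n = 6 arrays, limma adjusted p = 0.0946), and 0.20 with an adjusted p of 0.0566 without replicate 5. Its paralogue Scd1 was split, with 3 arrays above and 3 below 0, from -0.27 to 0.29 around 0.03. The 2 genes are near neighbours on chromosome 19, with probes at chr19:44381024-44381083 for Scd2 and chr19:44469387-44469446 for Scd1. Fads1, the delta-5 desaturase of polyunsaturated fatty acids, was below 0 on 6 of 6 arrays, from -0.20 to -0.02, with a fitted ratio of -0.08 ± 0.042 (limma adjusted p = 0.459). Fads2, the delta-6 desaturase, had -0.01 with a 95% interval of -0.09 to 0.08.

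Several probes of a gene give a further reading of the same arrays, though not an independent sample. Of the 31 genes, 19 had more than 1 probe tested. In 12 of these the probes had 1 sign, lower in 8 (Insig2, Hmgcs1, Fdps, Fdft1, Cyp51, Sc5d, Dhcr7 and Fasn) and higher in 4 (Mvk, Pmvk, Idi1 and Acly). How often probes share a sign over all genes was not computed, so these counts have no background beside them. On both sides some probes lay near 0, such as -0.00 for Fasn and 0.03 for Idi1. In 7 the signs were mixed: Srebf2, Insig1 and Acaca, described above, Lss, Hsd17b7 (-0.08 and 0.02), Nsdhl (0.09, 0.00, -0.01 and 0.00) and Stard4 (-0.03, 0.00 and -0.01).

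**Figure D3:**
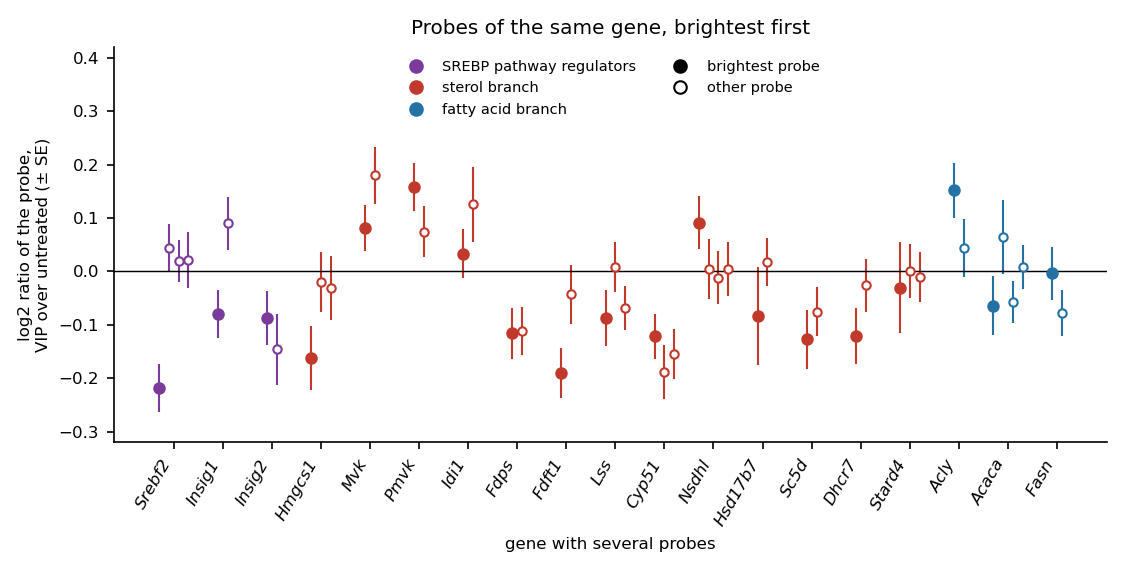
Fitted log2 ratio ± SE of each probe for the 19 genes with several probes, brightest probe first and filled. The Srebf2 probes split, with -0.22 for the brightest and 0.02 to 0.04 for the others, while the 3 Cyp51 probes lie between -0.19 and -0.12.

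Of the 31 genes, those with brighter probes were more often below 0. Brightness is a property of the probe as well as of the transcript. Among probes with a mean log2 intensity of at least 10, 15 of 18 genes were below 0, with a median of -0.08, and among dimmer probes 6 of 13, with a median of 0.03. Of all genes, 50.4% of the brighter and 50.2% of the dimmer were below 0. Across the 31 genes, Pearson's r between intensity and ratio was -0.31 and Spearman's rho -0.34; across all 22668 genes they were 0.04 and 0.02. These points share the same 6 arrays. Within the sterol branch 9 of 11 genes with brighter probes and 3 of 7 with dimmer probes were below 0. In the fatty acid branch the shares were alike, at 1 of 2 and 3 of 6. Brighter probes stood for all 5 regulators, 11 of the 18 sterol genes and 2 of the 8 fatty acid genes. The part of brightness in the sterol result and in the differences between branches was not tested.

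**Figure D4:**
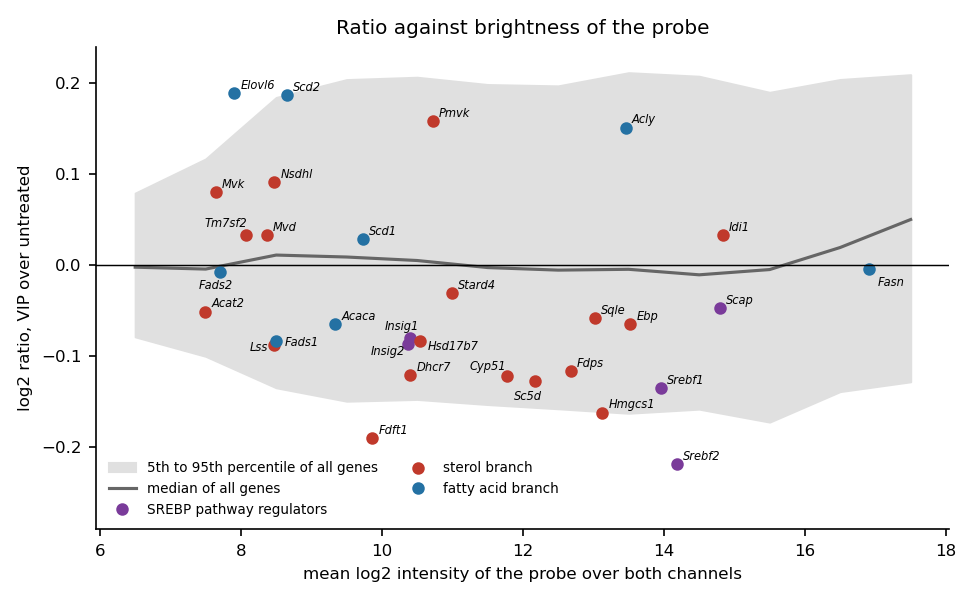
Fitted log2 ratio against the mean log2 intensity of the probe over both channels, for the 31 genes (coloured by branch), with the median and the 5th to 95th percentile of all genes in steps of 1 log2 unit in grey. Srebf2, Fdft1, Elovl6 and Scd2 lie at or beyond the edges of the grey band, and most other genes with a mean log2 intensity of at least 10 lie inside it below 0.

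Promoter sequence was examined because SREBP acts through a short sterol regulatory element, usually beside CCAAT and GC boxes, and because cyclic AMP acts through CREB sites. Promoters from 250 bases before to 50 after the start were taken from RefSeq (GRCm38.p6) and matched 24 of the 31 genes (32 promoters). No promoter was found for Fdps, Fdft1, Sqle, Stard4, Scd1, Scd2 and Fads1. The shares of all genes are over the 27025 genes with a promoter, whether or not they were expressed here. The letters were searched on both strands. TCACNCCAC, a sterol regulatory element, was found in 1 of 24 genes (4.17%, against 1.44% of all genes), Hmgcs1. CCAAT was found in 19 of 24 (79.2%, against 41.1%) and the GC box GGGCGG in 20 of 24 (83.3%, against 38.2%). In the sterol branch each of these 2 was present in 13 of 14 genes. Among the regulators, CCAAT was in 4 of 5 genes and the GC box in 5 of 5. In the fatty acid branch each was in 2 of 5 (40%), near the share of all genes. The full cyclic AMP element TGACGTCA was in 0 of 24 (2.03% of all genes), and its part TGACG, which the full element contains, in 9 of 24 (37.5%, against 23.0%). A match is a description of letters and not a site of binding.

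The 250 bases before the start of Hmgcs1, Cyp51 and Srebf2 are shown 5′ to 3′ on the strand of the gene. They are the gene with a match to TCACNCCAC, the sterol gene below 0 on 6 of 6 arrays and the gene that fell. Variants of these letters were not searched, so other sterol elements may have been missed. In the 3 promoters capitals mark matches to the motifs in either orientation, and in the short stretch of Hmgcs1 they mark the sterol element alone. Counted from the start, the Hmgcs1 element begins at base -137 and a reversed TGACG at base -147, and the element lies in chr13:119690204-119690232 (plus strand) as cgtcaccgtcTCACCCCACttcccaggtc. Positions are chr13:119690101-119690350 (plus strand) for Hmgcs1, chr5:4104698-4104947 (minus strand) for Cyp51 and chr15:82147019-82147268 (plus strand) for Srebf2, all GRCm38.p6.
Hmgcs1 promoter: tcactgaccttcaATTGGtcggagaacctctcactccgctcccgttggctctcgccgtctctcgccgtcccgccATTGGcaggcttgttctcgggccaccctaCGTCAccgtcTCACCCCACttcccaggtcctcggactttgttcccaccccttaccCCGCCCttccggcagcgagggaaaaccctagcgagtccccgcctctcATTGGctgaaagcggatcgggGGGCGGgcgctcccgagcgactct
Cyp51 promoter: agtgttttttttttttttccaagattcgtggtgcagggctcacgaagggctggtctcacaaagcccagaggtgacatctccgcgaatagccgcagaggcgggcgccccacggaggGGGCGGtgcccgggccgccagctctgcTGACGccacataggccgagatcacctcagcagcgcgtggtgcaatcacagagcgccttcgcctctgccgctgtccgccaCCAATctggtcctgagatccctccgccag
Srebf2 promoter: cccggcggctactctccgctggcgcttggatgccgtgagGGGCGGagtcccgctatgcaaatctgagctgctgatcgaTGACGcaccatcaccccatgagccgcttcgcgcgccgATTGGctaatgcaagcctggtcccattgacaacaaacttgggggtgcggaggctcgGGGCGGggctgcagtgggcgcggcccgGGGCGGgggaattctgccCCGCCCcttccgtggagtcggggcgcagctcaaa

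Other genes of lipid metabolism were set beside the 31. Of 20 other genes of fatty acid synthesis and activation, 4 rose, none fell and 16 did not pass, where 1.61% of all genes rose and 0.534% fell. The 4 lengthen fatty acids or attach them to coenzyme A. Elovl5, an elongase of polyunsaturated fatty acids, rose by 0.45 ± 0.070 (SE, n = 4 arrays, limma adjusted p = 0.0159), with 0.63, 0.39, 0.37 and 0.52 on replicates 2, 3, 4 and 6, and its second probe gave 0.38. Acsl4, which activates arachidonic acid, rose by 0.31 ± 0.056 (n = 6 arrays, limma adjusted p = 0.0172), with 0.34 from a second probe. Acsl3, another activating ligase, rose by 0.40 ± 0.075 (n = 4 arrays, limma adjusted p = 0.0363). Elovl7, an elongase, rose by 0.23 ± 0.044 (n = 6 arrays, limma adjusted p = 0.0281), though its dimmer probe gave 0.08. Each of the 4 calls was lost when certain single replicates were left out. The limma adjusted p was then 0.0591 and 0.062 for Elovl5 (without replicates 2 and 6), 0.0664 to 0.0858 for Acsl4 (without 1, 2, 3 or 4), 0.0649 to 0.103 for Acsl3 (without 1, 2, 4 or 6) and 0.0937 to 0.121 for Elovl7 (without 1, 2, 3 or 6). Elovl5 and Acsl3 have values on 4 arrays, of which replicate 3 is the only one with VIP in Cy5. Replicate 3 counts in their fits as much as the other arrays together, and no value could be had without it. All 4 were also lost with median centring and with the authors' log ratios, at ratios of 0.25 to 0.56. The losses for Acsl4 and Acsl3 included plain background subtraction (limma adjusted p of 0.199 and 0.31) and no dye term (0.182 and 0.0526). The calls held in 14 of 20 alternatives for Elovl5, 13 of 22 for Acsl4, 11 of 20 for Acsl3 and 12 of 22 for Elovl7. These 4 are named because they passed, and none is among the 8 of the fatty acid branch.

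None of the other 3 lists held a gene that passed. Of 13 genes of SREBP processing and lipid sensing, 10 were below 0 (median -0.03). The lowest was Mbtps1, the protease that first cleaves SREBP, at -0.20 ± 0.052 (limma adjusted p = 0.102, and 0.0288 without replicate 5); it had a dye effect of -0.29, and its other probes gave 0.07 and -0.10. Erlin1, which helps degrade sterol-regulated proteins, was below 0 on 6 of 6 arrays at -0.11 ± 0.039 (limma adjusted p = 0.258). Of 11 other sterol and isoprenoid enzymes, 7 were below 0 (median -0.03). The electron donor Por had 0.20 ± 0.062 (limma adjusted p = 0.171) and Dhdds, of dolichol synthesis, -0.14 ± 0.044 (limma adjusted p = 0.176). Of 14 genes of sterol uptake, transport, storage and efflux, 10 were above 0 (median 0.05). Mylip, a ligase that lowers lipoprotein receptors, had 0.15 (limma adjusted p = 0.161). The carrier Stard3 had -0.20 ± 0.045 (n = 5 arrays, limma adjusted p = 0.0652, and 0.0283 without replicate 5). Stard3 has no value on replicate 5, so its ratio was the same in both fits.

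**Figure D5:**
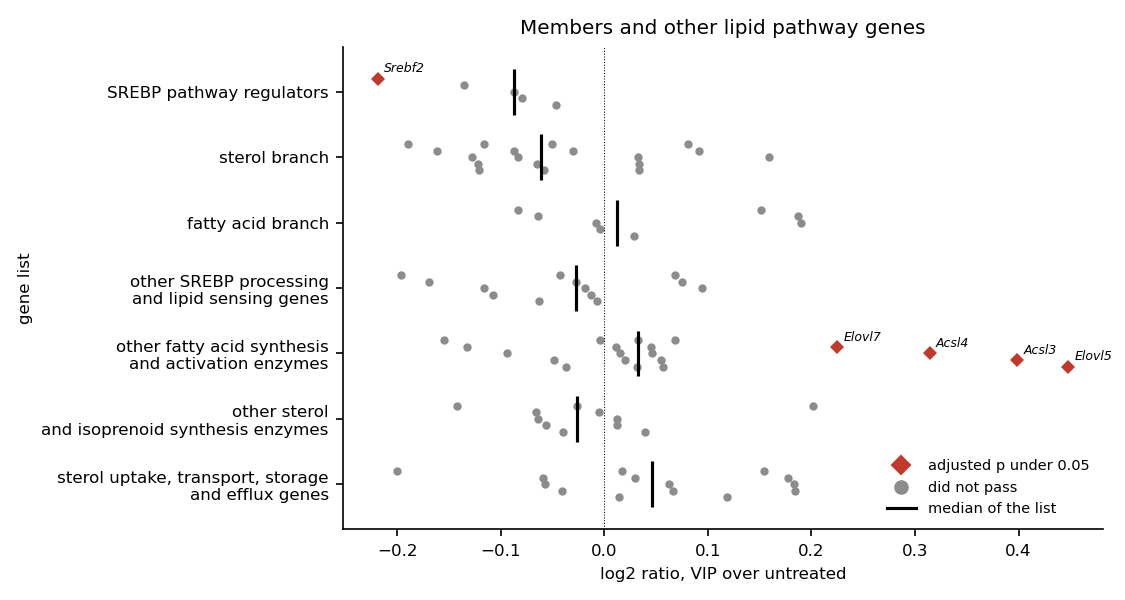
Fitted log2 ratios of the 31 genes in 3 branches and of 4 other lists of lipid genes, 1 point per gene, with the median of each list as a line. Diamonds are genes with a limma adjusted p under 0.05, which are Srebf2 at -0.22 among the regulators and Elovl7, Acsl4, Acsl3 and Elovl5, between 0.23 and 0.45, among the other fatty acid genes.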

How the data were processed

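RNA of VIP-treated and untreated cells, both activated, was measured on 6 two-colour Agilent arrays. The software was Agilent Feature Extraction 9.5.1.1, per the file headers, and the deposited files hold its spot intensity, local background and quality flags per channel. The authors' deposited series table holds log10 ratios; it matched the scanner's red over green log10 ratio, turned where VIP was in Cy3, to within 4.47e-06. The median of each column was 0 except on replicate 3, where it was -0.00022.

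Mean signal was corrected with normexp (offset 50) and normalized by loess within arrays, giving control spots no weight (R 4.3.3, limma 3.58.1). Spots with an outlier flag were left out, and spots of a probe averaged. Genes well above background on at least 3 arrays in 1 channel were tested with lmFit and eBayes (dye intercept and VIP effect), adjusted over 22668 genes. The prior had 6.22 degrees of freedom. Genes with a value on all 6 arrays had 4 residual degrees of freedom, and genes lacking an array, such as Srebf2, had fewer. Genes other than the 31 were renamed through a RefSeq table (GRCm38.p6, names only): 26788 spots by accession, 1810 by synonym, and 14781 kept the name in the file. Probe positions are mm9.

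Per the labels, each array pairs both RNAs of 1 biological replicate, so the ratio within an array is the unit. Each of 3 slides held 1 array of each dye orientation. VIP in Cy5 was always at slide position 2 and VIP in Cy3 at position 4, so dye and position cannot be told apart. Precision is limited by the number of arrays, and a p-value reflects only the spread among these 6. The 31 genes, the lists and the naming rule were chosen with earlier results of these data known. All 31 genes are named. Full statistics went to genes with an adjusted or unadjusted p under 0.05 and to the 3 smallest p of each branch; of other lists, genes past the threshold and the 2 smallest p were named. The fit was tested on simulated data. Alternatives varied background, normalization, filter, flags, probe rule, dye, pairing, slide, weights, prior, threshold, replicates and gene names.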

Additional observations from a re-analysis of the deposited data

How the results depend on the processing

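The count of 1 gene falling depended on the settings. It was 0 with plain background subtraction, median centring, the authors' log ratios, outlier spots kept, the mean of all probes, no dye term, slide as a fixed block and a robust prior, and also with no replicate block (the 12 channels as separate samples, with the pairing of the channels given up), where Srebf2 had an adjusted p of 1 in limma. It was 2 with array weights and at an adjusted p under 0.10. Leaving out 1 replicate gave 0 to 2, with 2 without replicate 5. The count of genes rising was 0, and 1 with no background subtraction and with array weights (Elovl6 in both) and 2 at 0.10 (Elovl6 and Scd2). Srebf2 was below 0 in all 22 alternatives, from -0.23 to -0.02, and past the threshold in 8 of them. The median of the regulators was -0.057 with median centring and -0.047 with the mean of all probes, and ran from -0.114 to -0.080 when 1 replicate was left out. The median of the fatty acid branch was 0.067 with median centring, 0.035 with outlier spots kept and 0.0011 to 0.043 when 1 replicate was left out. That of the sterol branch was below 0 in each alternative, closest to 0 with median centring (-0.036) and outlier spots kept (-0.041). Genes that did not pass and changed sign were Fads2 (0.0048 with no background subtraction, 0.0023 with the authors' log ratios), Fasn (0.069 with median centring, 0.040 with outlier spots kept, and -0.027 to 0.020 when 1 replicate was left out, above 0 without replicates 1 and 2), Insig1 (0.016 with the mean of probes), Scap (0.011 with median centring), Stard4 (0.027 with median centring, 0.012 with array weights, and -0.14 to 0.064 when 1 replicate was left out, above 0 without replicates 5 and 6), Hsd17b7 (-0.17 to 0.014 over the same fits, above 0 without replicate 5), Mvd (-0.018 to 0.082, below 0 without replicate 6) and Scd1 (-0.050 to 0.090, below 0 without replicate 1). The causes were not tested. Over all genes, counts of rising and falling genes were 38 and 2 with plain subtraction, 162 and 39 with no dye term, 1 and 0 with no replicate block, 482 and 226 with array weights, 315 and 76 with outlier spots kept, and ran from 162 to 568 and from 31 to 252 when 1 replicate was left out. Signal over background limited Acat2, which gave no value where every channel had to be well above background.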
